A study of Mus musculus with 2 samples.

Results

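The cytosolic ribosomal protein genes were followed through single-cell libraries of mouse liver. Members were taken by name from the 55357 genes listed, as symbols of the form Rpl or Rps with a number (and at most 1 closing letter a, l, x or y), together with Rplp0, Rplp1, Rplp2 and Rpsa, with at least 1000 unique molecular identifiers (UMIs, which count captured RNA molecules) summed over both libraries. Of 83 genes with such a name 77 were kept, 46 of the large and 31 of the small ribosomal subunit. Rps27l, with 14990 UMIs, was the member just inside the limit, and Rps4l (893), Rpl6l (520), Rpl3l (166), Rpl39l (73), Rpl32l (21) and Rpl10l (0) fell outside it. Rps3a1 and Fau also encode cytosolic ribosomal proteins but fall outside the name rule.

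The study took liver cells from mice made fibrotic with CCl4, carbon tetrachloride, a toxin of hepatocytes. One group had CCl4 alone and the other had CCl4+IPA, with IPA not spelled out in the labels, so that both groups carried the CCl4 injury and no uninjured liver was among them. Each group was 1 10x 3′ library, and the labels give no strain, age, dose, time or number of animals. Every difference between the groups is therefore a difference between 2 libraries, with no replicate check and no test, and all intervals are 95% intervals that cover counting error only.

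Ribosomal proteins assemble with ribosomal RNA into the large and the small subunit of the ribosome, in which most of them are present in equal number. Their mRNAs are short and abundant, and many begin with a run of pyrimidines, the 5′ terminal oligopyrimidine (TOP) element, through which mTOR and the RNA-binding protein Larp1 control their translation and stability. Lymphocytes are known for abundant ribosomal protein mRNA, and neutrophils for winding down ribosome production as they mature.

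The start sites of 6 members whose values are described below show what such an element looks like. Each line gives the bases from 30 before to 20 after the annotated start, read 5′ to 3′ on the gene's strand, from RefSeq promoters of GRCm38.p6. Capitals mark the unbroken run of C and T that begins at the start base, and for Rps27l, which has none, the start base alone. The intervals are Rps18 at chr17:33955646-33955695 (minus strand), Rpl35 at chr2:39005112-39005161 (minus), Rps10 at chr17:27635225-27635274 (minus), Rps27 at chr3:90213629-90213678 (minus), Rps6 at chr4:86857348-86857397 (minus) and Rps27l at chr9:66946056-66946105 (plus).
Rps18: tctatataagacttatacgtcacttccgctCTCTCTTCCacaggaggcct
Rpl35: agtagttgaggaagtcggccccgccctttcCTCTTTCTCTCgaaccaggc
Rps10: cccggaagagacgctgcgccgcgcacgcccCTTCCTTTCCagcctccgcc
Rps27: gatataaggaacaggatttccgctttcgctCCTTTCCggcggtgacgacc
Rps6: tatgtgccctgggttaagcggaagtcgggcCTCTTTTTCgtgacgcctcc
Rps27l: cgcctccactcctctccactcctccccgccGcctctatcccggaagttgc
Rps18, Rpl35, Rps10, Rps27 and Rps6 open with runs of 9, 11, 10, 7 and 9 pyrimidines, and the paralogue Rps27l opens with G. The table held 68 promoters for 57 of the 77 members. A start base C followed on the gene's strand by at least 4 more C or T was found in 13 of the 68 (19.1%), against 823 of 32851 promoters of all genes (2.51%). With a C and at least 7 more C or T anywhere from 25 before to 50 after the start, the shares were 48 of 68 (70.6%) and 7063 of 32851 (21.5%). These matches describe the letters in the window and no factor's binding.

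The CCl4 library held 10427 barcodes with 45009730 UMIs and the CCl4+IPA library 10471 with 37983923, and 10016 and 10128 cells were analysed after filtering. The libraries shared 23 barcode sequences. They also stood apart outside the members: mitochondrial transcripts made up 3.33% of UMIs in CCl4 and 1.78% in CCl4+IPA, and 4 rows that hold ribosomal RNA-like sequence 7.35% and 1.24%. Cells were given a class by marker genes, which placed 84.6% of CCl4 and 89.0% of CCl4+IPA cells, and 8 classes had at least 50 cells in each library. All markers of its own class were detected in each of the 8. Mesothelial cells also held the stromal list at 7038 and 7301 CPM (UMIs scaled to the same library total), beside 6771 and 6636 for their own list. Although the tissue is labelled liver, only 5 and 12 cells were gated as hepatocytes, so the shares below describe mainly immune cells.

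The ribosomal protein genes took up a large and class-specific part of the RNA. In CCl4 their share of UMIs was 22.5% in T cells, 22.1% in B cells, 17.05% in NK or ILC1 cells, 16.3% in monocytes, 16.2% in plasmacytoid dendritic cells, 12.9% in plasma cells and 10.4% in mesothelial cells. Neutrophils held the lowest share, 3.47%. The CCl4+IPA library gave the same order down to plasmacytoid dendritic cells, and there plasma cells (8.66%, interval 8.60 to 8.72) and mesothelial cells (8.67%, 8.62 to 8.72) could not be told apart. Single cells varied within each class. The interquartile range over T cells ran from 16.3 to 27.0% in CCl4 and from 14.6 to 26.0% in CCl4+IPA, and over neutrophils from 2.16 to 3.93% and from 2.32 to 4.02%. The neutrophil class also expressed the granulocyte precursor list, at 7059 and 5993 CPM.

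**Figure D1:**
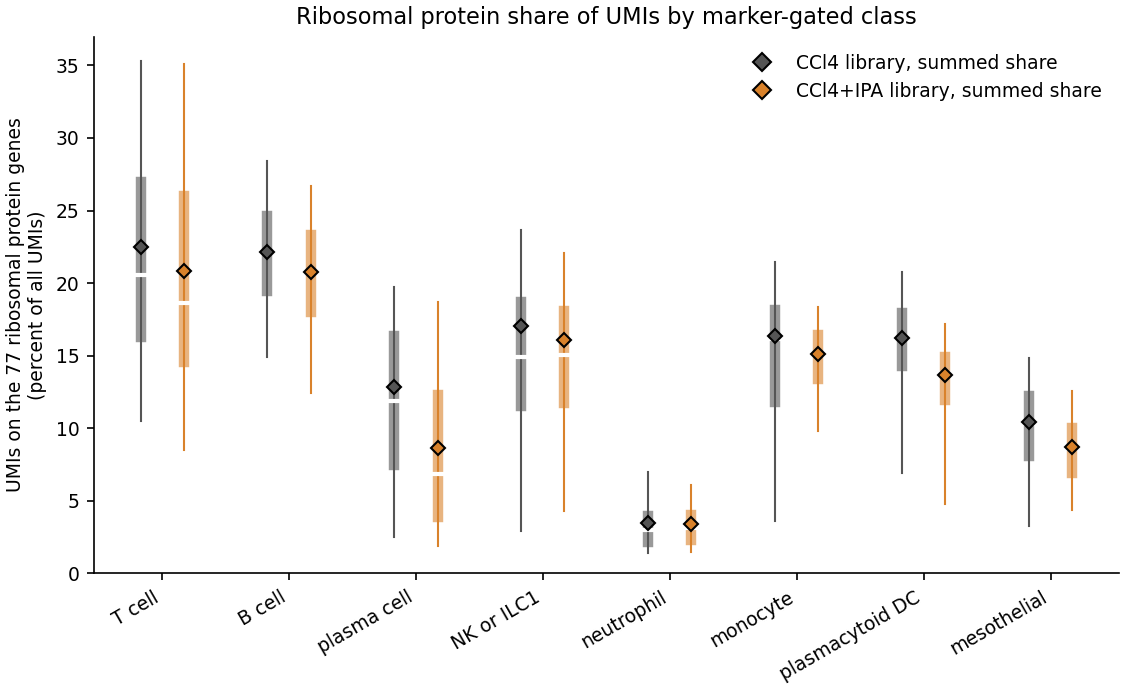
Share of UMIs on the 77 ribosomal protein genes (percent, vertical axis) in 8 marker-gated classes, with diamonds for the share of summed UMIs, thick bars for the interquartile range over cells, white ticks for the median cell (hidden where the diamond covers it) and thin lines for the 5th to 95th percentile of cells. The CCl4 library is grey and the CCl4+IPA library orange, and neutrophils lie lowest in both, at 3.47% and 3.38%.

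Between the libraries the summed share was lower in CCl4+IPA over all cells, 17.3% against 19.1% (ratio 0.904, interval 0.903 to 0.905). It was lower in the sums of all 8 classes, although neutrophils changed direction with a stricter gate margin (log2 ratio 0.061) and neutrophils and NK or ILC1 cells did so in the median cell (0.068 and 0.0089). The ratio was 0.925 in T cells (20.8% in CCl4+IPA), 0.937 in B cells (20.7%), 0.942 in NK or ILC1 cells (16.1%), 0.974 in neutrophils (3.38%) and 0.923 in monocytes (15.1%). It was smaller in plasmacytoid dendritic cells (0.842, 13.7%) and mesothelial cells (0.834, 8.67%) and smallest in plasma cells (0.674, 8.66%). When each cell was thinned to 1000 UMIs, which left out 597 and 603 shallower cells, the log2 ratio of monocytes went from -0.12 to -0.0095, and that of NK or ILC1 cells from -0.086 to -0.029. A gate margin of 3 markers took the log2 ratio of mesothelial cells from -0.26 to -0.13. A share of UMIs says how much of the captured RNA was on the members, not how much RNA a cell held.

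Immunoglobulin transcripts filled 27.2% of plasma cell UMIs in CCl4 and 43.2% in CCl4+IPA, and without them in the total the log2 ratio of plasma cells was -0.21 in place of -0.57. With the ribosomal RNA-like rows left out of the total, the gap between the libraries grew, to a log2 ratio of -0.24 over all cells in place of -0.15. The part of the lower mitochondrial share and the lower depth (a median of 2725 UMIs a cell, against 3153.5) in the difference was not tested. Conventional dendritic cells (166 and 43 cells) and macrophages (96 and 17) had too few cells in CCl4+IPA to be compared, and held 21.5% and 18.5%, and 17.2% and 15.7%.

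Gene by gene, the number of members that moved differed widely between classes. Genes are counted here as lower at a CPM ratio of at most 0.8, CCl4+IPA over CCl4, and as higher at the inverse of that ratio or above. Over all cells 7 of 77 members were lower and none higher, where 3.34% of all genes measured were lower and 37.6% higher. Members lower were 6 of 77 in T cells, where 1.72% of genes were, 5 in B cells (2.47% of genes), 6 in NK or ILC1 cells (5.31%), 10 in neutrophils (11.7%), 9 in monocytes (10.1%), 20 in plasmacytoid dendritic cells (6.58%), 24 in mesothelial cells (19.1%) and 67 in plasma cells (45.9%). Without immunoglobulin rows in the total the plasma cell count was 25 of 77, beside 25.7% of genes, and with a gate margin of 3 markers the mesothelial count was 8, beside 21.2% of genes. The members' share in mesothelial cells was then under that of all genes. Leaving the ribosomal RNA-like rows out raised the count to 20 in T cells (3.11% of genes) and 13 in B cells (4.12%). Only 1 member was higher in any of the 8 classes, in neutrophils, where 30.2% of genes were higher. The other 7 classes had no member higher, beside 42.5% of genes in T cells, 41.1% in B cells, 18.3% in plasma cells, 37.2% in NK or ILC1 cells, 35% in monocytes, 34.8% in plasmacytoid dendritic cells and 27.7% in mesothelial cells. The median member had a log2 ratio of -0.08 in T cells, -0.07 in B cells and -0.59 in plasma cells, where the median of all genes stood at 0.28, 0.27 and -0.25. Set against that median, 50 of 77 members were lower in T cells, beside 8.96% of genes. Any CPM below that of CCl4, however small the gap, was found for 59 of 77 members in T cells (12.4% of genes), 56 in B cells (14.9%), all 77 in plasma cells (65.8%), 58 in NK or ILC1 cells (25.9%), 54 in neutrophils (34.5%), 57 in monocytes (32.1%), 71 in plasmacytoid dendritic cells (28.7%) and 73 in mesothelial cells (45.7%). A lower CPM in all 8 classes was found for 41 of 77 members and for 2.27% of the 5144 genes measured in all 8.

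To ask which members moved against the rest, each gene was expressed as a percent of the summed member UMIs, its composition, so that a move of the whole group drops out. Rps18, a protein of the small subunit's head, went furthest down, from 1.74% to 1.36% of member UMIs in T cells, from 1.67% to 1.31% in B cells and from 1.64% to 1.27% in plasma cells. Its median log2 ratio over the 8 classes was -0.37, with a range from -0.53 to -0.22. The next were Rps29, a zinc-binding protein of the small subunit (median -0.32), Rpl35 of the large subunit (-0.28), Rps23, which lies at the decoding centre (-0.27), Rpl26 (-0.26) and Rplp0, the base of the ribosomal stalk (-0.24). All 6 were below the CCl4 value in 8 of 8 classes. They were picked by their medians over these same classes, so that count is partly built in. Members that were not picked, such as Rps28 and Rpl36, were also below in all 8. The counting interval of the composition ratio lay below 1 in all 8 classes for Rps18, Rps29, Rpl35, Rps23 and Rpl26 and in 6 for Rplp0.

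At the other end, Rps10, a protein of the small subunit's head, rose in composition from 0.552% to 0.697% in T cells, from 0.551% to 0.704% in B cells and from 0.471% to 0.601% in plasma cells. Its median log2 ratio was 0.34. Rpl23a, near the exit of the peptide tunnel (0.28), Rps15 (0.28), Rpl27 (0.24), Rpl18 (0.23) and Rpl24 (0.20) followed, all above the CCl4 value in 8 of 8 classes. These too were picked by their medians, and Rplp2 and Rpl23, which were not picked, were also above in all 8. In CPM, Rps10 was above the CCl4 library in 6 of the 8 classes, from 1242 to 1450 in T cells, and below it in plasma and mesothelial cells. Pseudogene rows named for Rps10 held UMIs equal to 13.8% of its own, the largest such share of any member, and no source used here states how reads fitting both were assigned. Rps18, Rpl35 and Rps10 all open with pyrimidine runs, so that members with a TOP-like start lay at both ends. The median log2 composition ratio was -0.07 for the 13 members with such a start and 0.05 for the 44 without. Over the 77 members, Spearman's rho of the composition ratio was 0.11 with transcript length and -0.12 with total UMIs. Both subunits were spread over the range, with median log2 ratios of 0.01 for large and 0.03 for small subunit members.

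**Figure D2:**
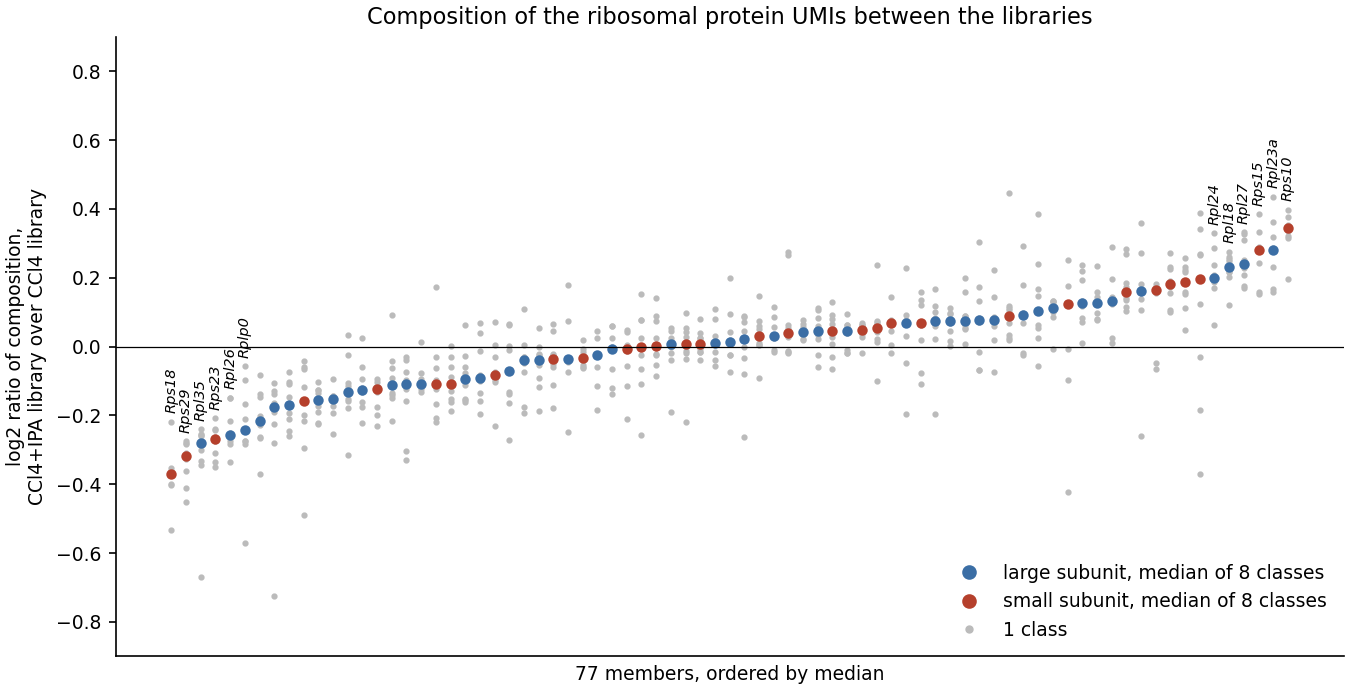
Log2 ratio of composition, CCl4+IPA library over CCl4 library (vertical axis), for the 77 members ordered by their median over 8 classes, with grey points for single classes and coloured points for medians (blue large subunit, red small subunit). Rps18 lies lowest at -0.37 and Rps10 highest at 0.34, with large and small subunit members at both ends.

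The make-up of the group also differed between cell classes. A range over 8 classes and a ratio of 2 libraries are unlike measures, so the 2 were not ranked. Over the 8 classes, 24 members had a composition that varied at least 2-fold in both libraries, and the median member varied 1.73-fold in CCl4 and 1.80-fold in CCl4+IPA. The pattern returned in the other library: 57 of 77 members had the same highest class in both, and 59 the same lowest class. For Spearman's rho between the libraries, each gene's log2 composition was taken less its mean over the 8 classes. Over the 77 genes this rho was 0.915 in plasma cells and 0.977 in B cells, the lowest and the highest of the 8.

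Neutrophils had the most distinct make-up. Rps9, a small subunit protein near the mRNA entry, made up 6.79% of their member UMIs in CCl4 and 8.26% in CCl4+IPA, against 1.57% and 1.79% in T cells. Rps27a, made as a fusion with ubiquitin, stood at 4.21% and 4.96%, Rps27 at 4.83% in both and Rpl37 at 3.43% and 3.70%, each the highest of the 8 classes. Neutrophils were at the same time lowest for Rpl3 (0.297% and 0.248%), which lies close to the peptidyl transferase centre, for Rpl12 of the stalk base (0.461% and 0.416%) and for Rpl10a of the L1 stalk (0.238% and 0.208%). In CCl4, 33 of 77 members had their lowest composition in neutrophils, and 36 in CCl4+IPA. Even so, Rps9 in neutrophils, at 2354 and 2792 CPM, was below its CPM in T cells, 3535 and 3719.

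Plasmacytoid dendritic cells were marked by Rpl31, a large subunit protein at the tunnel exit, with 1.503% and 1.37% of member UMIs. In the other 7 classes it stayed between 0.311% and 0.499% in CCl4 and between 0.233% and 0.454% in CCl4+IPA, so no other class came near. The CPM of Rpl31 in plasmacytoid dendritic cells was 2436 and 1875, against 707 and 608 in T cells. Rpl10, which joins the large subunit late in its assembly, was highest in plasmacytoid dendritic cells in CCl4 (1.84%) and in plasma cells in CCl4+IPA (1.82%), and lowest in T cells in both (0.679% and 0.661%).

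**Figure D3:**
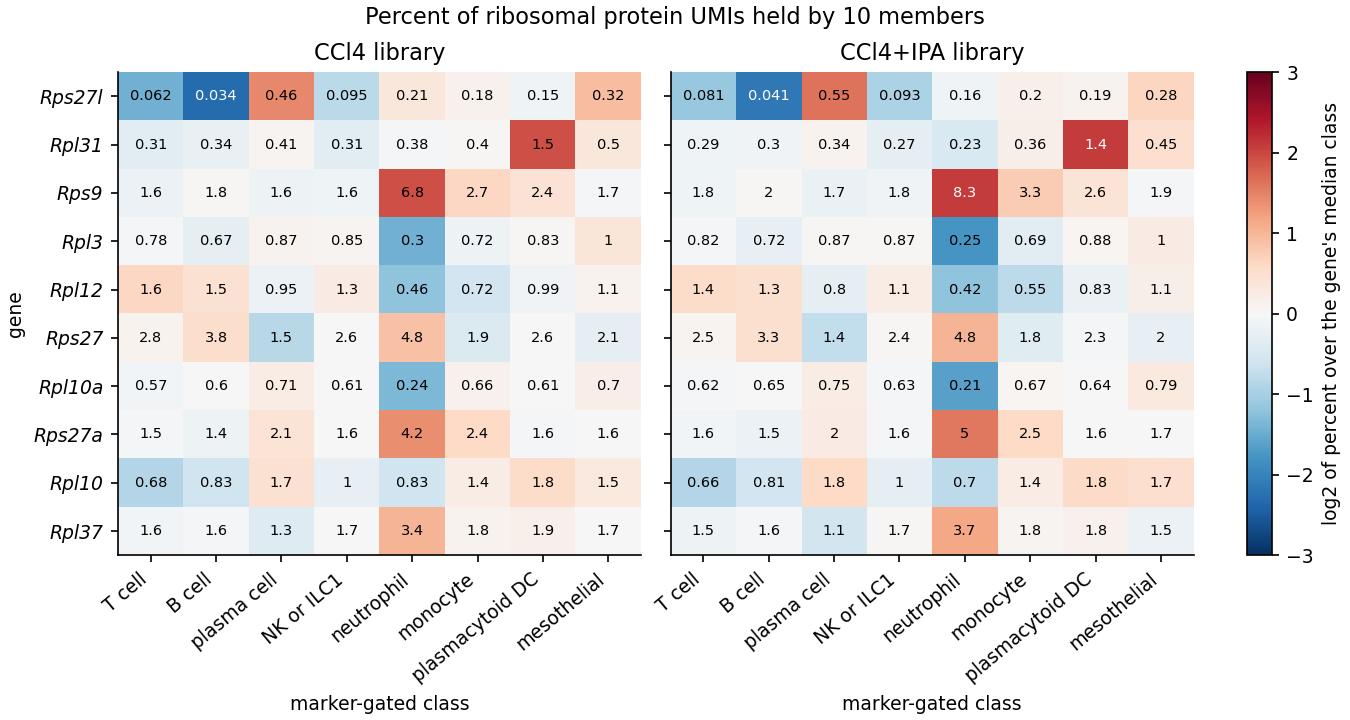
Percent of ribosomal protein UMIs held by the 10 members whose composition varied most between classes (rows), in 8 classes (columns) and both libraries (panels), coloured by log2 of the value over that gene's median class. Rps9 in neutrophils (6.79% and 8.26%) and Rpl31 in plasmacytoid dendritic cells (1.503% and 1.37%) stand out in both panels.

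The member with the widest range was Rps27l, a paralogue of Rps27 known as a target of p53. It made up 0.458% and 0.551% of member UMIs in plasma cells and 0.034% and 0.041% in B cells, the lowest class, a 13.6-fold range in each library. Of the UMIs of the pair Rps27l and Rps27, Rps27l held 23.8% (interval 22.4 to 25.3) and 27.8% (25.5 to 30.2) in plasma cells, 12.9% and 12.2% in mesothelial cells, and 0.886% and 1.21% in B cells. Plasma cells were thus high for Rps27l and lowest of the 8 classes for Rps27, at 1.46% and 1.43% of member UMIs.

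Pairs of a member and a paralogue that is no member differed by class as well. Rpl36al held 39.4% of the UMIs of its pair with Rpl36a in CCl4 plasma cells and 54.7% in CCl4+IPA, against 14.3% and 18.1% in B cells. Rpl22l1, which Rpl22 is known to repress and which can stand in for it, held 37.3% and 37.5% of its pair in mesothelial cells and between 16.0% and 25.1% in the other 7 classes of both libraries. Rps4l, below the limit for members, held at most 2.46% of its pair with Rps4x in any of the 8 classes, with 67 UMIs behind that value. UMIs come from near the 3′ end and were not scaled by transcript length, and reads that fit both genes of a pair may have been split between them.

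**Figure D4:**
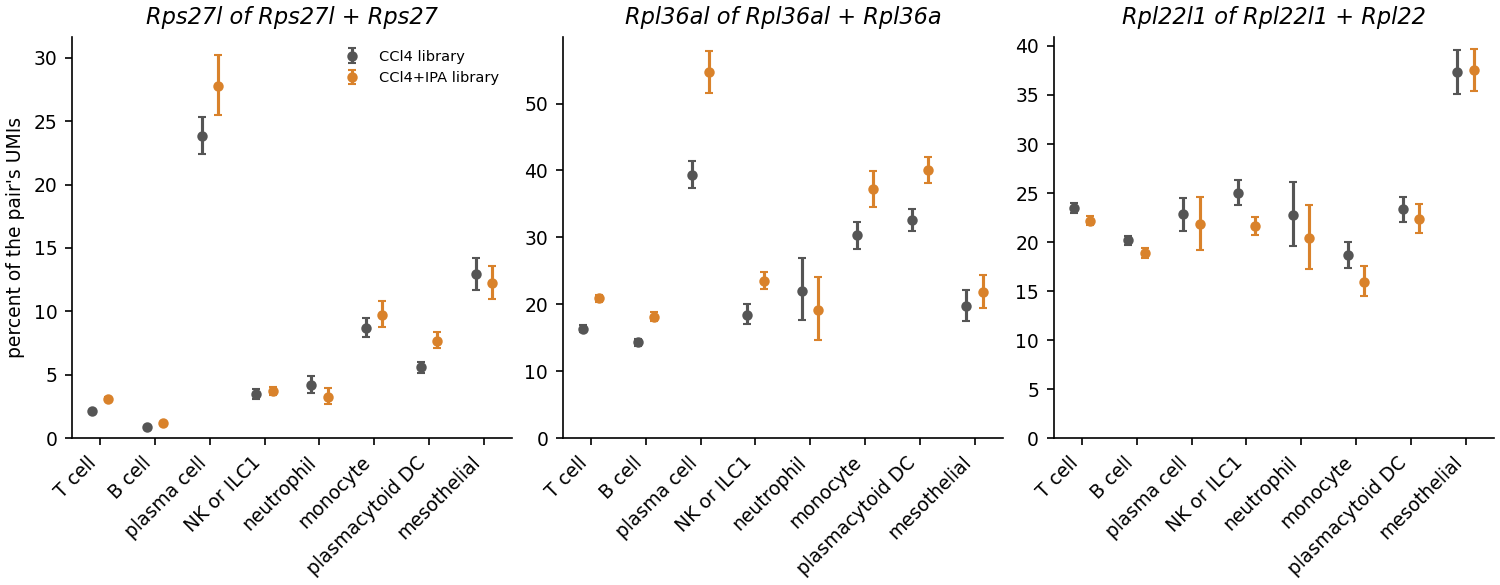
Percent of a paralogue pair's UMIs that fall on the paralogue named first (vertical axis, from 0, with different ranges per panel) in 8 classes, with grey points for the CCl4 library, orange points for the CCl4+IPA library and bars for 95% exact binomial intervals. Rps27l and Rpl36al are highest in plasma cells and Rpl22l1 in mesothelial cells, in both libraries.

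Within T cells, the share differed between the naive and the effector state. Cells with at least 2 of the naive genes Ccr7, Lef1, Tcf7 and Igfbp4 and none of the effector list (Ccl5, Nkg7, Cxcr6, Id2, S100a4 and Cxcr3) held 29.0% of UMIs on the members in CCl4 (217 cells) and 28.3% in CCl4+IPA (310 cells). Cells of the opposite pattern held 17.8% (814 cells) and 16.0% (965 cells). The ratio was 1.63 in CCl4 and 1.77 in CCl4+IPA, larger than the difference between the libraries in any of the 8 classes. Median depth was similar in the 2 subsets, 3636 and 3698.5 UMIs in CCl4 and 2896 and 3014 in CCl4+IPA.

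Nearly the whole group took part. In CCl4, 73 of 77 members were higher in the naive subset by the same ratio, where 17.6% of all genes measured were, and in CCl4+IPA also 73 of 77, beside 19%. Rps20 led, with 2582 CPM in effector and 6404 CPM in naive cells of CCl4 (2.48-fold) and 2332 and 6469.9 CPM in CCl4+IPA (2.77-fold). Rps19, known for its mutations in Diamond-Blackfan anaemia, was 2.37-fold and 2.55-fold higher, Rps29 2.29-fold and 2.48-fold, and Rpl12 2.08-fold and 2.31-fold. Rpl5, which with Rpl11 binds Mdm2, was 2.10-fold and 2.38-fold higher. Rpl27 stayed near 1, at 0.916 and 1.01, and Rps27l ran the other way, with 171 CPM in effector and 52.3 CPM in naive cells of CCl4 (ratio 0.306) and 211 and 72.7 CPM in CCl4+IPA (0.345). Over the 77 members, the rho of the naive over effector composition ratio between the libraries was 0.963.

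**Figure D5:**
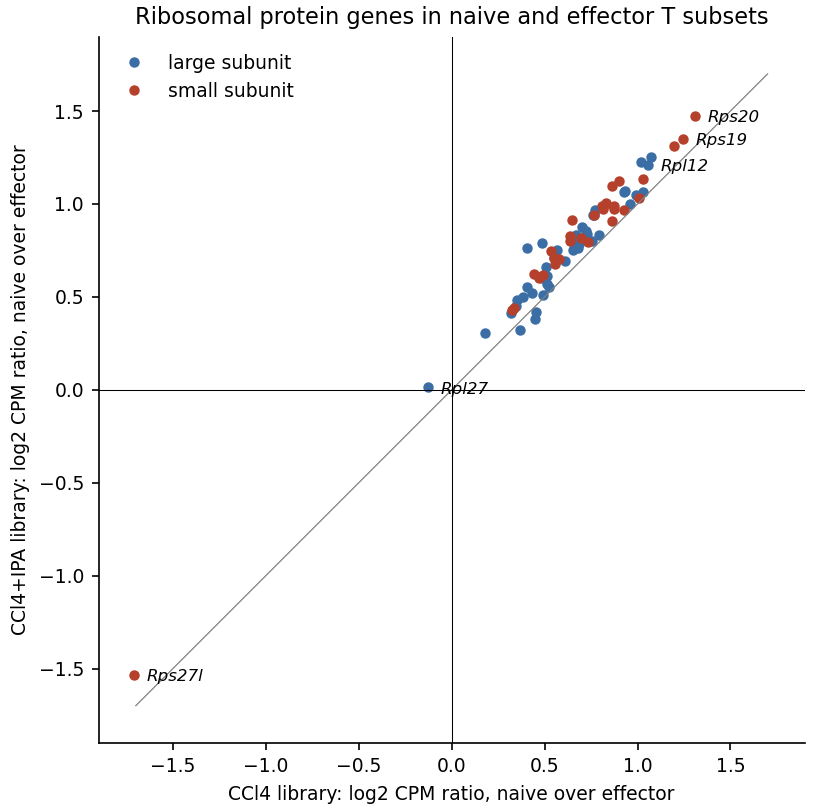
Log2 CPM ratio of naive over effector T subsets in the CCl4 library (horizontal axis) and the CCl4+IPA library (vertical axis) for the 77 members, blue for the large and red for the small subunit, with the line of equal values in grey. Rps20 lies furthest up in both and Rps27l alone lies far below 0 in both, at -1.71 and -1.53.

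The splits tried in B cells and by cell cycle gave no difference of that size. B cells with at least 2 of the activation genes Cd83, Myc, Nr4a1, Egr2 and Cd69 held 22.1% and 20.8% on the members. Those with none held 22.1% and 20.2%. The first group had 2894 of the 3715 B cells in CCl4 and 2586 of 3195 in CCl4+IPA, and the second only 191 and 166. Median depth was 2896 and 2445 UMIs in the first and 2413 and 1952.5 in the second. With most B cells in 1 group, this split says little about activated against resting cells. The stricter split that also used a resting list left 2 and 5 activated cells, too few to compare. Cycling cells (at least 3 of 8 cell cycle genes detected, 387 in CCl4 and 470 in CCl4+IPA) and non-cycling cells (none detected, 4513 and 4734) left 5116 and 4924 cells in neither group. The non-cycling cells were much shallower, with medians of 2630 and 2243.5 UMIs against 11341 and 7930.5. The summed shares of the 2 groups differed by a ratio of 1.02 in CCl4 and 1.04 in CCl4+IPA, a direction that changed under 4 of the alternatives in CCl4, such as the median cell (log2 ratio -0.091), and under 1 in CCl4+IPA. Both groups pooled cells of all classes, whose shares differ, and the part of cell class in these ratios was not tested. Among T cells alone the cycling cells were lower, at ratios of 0.906 and 0.841. Among B cells, with 18 and 17 cycling cells, the ratio was 0.990 in CCl4, with an interval that included 1, and 1.07 in CCl4+IPA.

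Other genes of the same pathway were read beside the members. Of 17 translation factors and other genes with TOP mRNAs, none was lower and 3 were higher in T cells, where 42.5% of all genes were higher, with a median log2 ratio between the libraries of 0.09. In plasma cells 12 of 17 were lower, beside 45.9% of genes, and 3 of 17 without immunoglobulin rows in the total, beside 25.7%. Eef1b2, an exchange factor of elongation, was lower in 4 of 8 classes, and Pabpc1, the poly(A)-binding protein, higher in 3. The list of 21 ribosome biogenesis genes had 3 higher and none lower in T cells, beside 42.5% and 1.72% of genes. In plasma cells 14 of 19 measured were lower, beside 45.9% of genes, and 10 of 19 without immunoglobulin rows, beside 25.7%. Genes of this list went both ways between classes. Nolc1, a nucleolar chaperone, was lower in 5 of 8 classes, and Rrs1, Wdr12 and Wdr43 in 4. Nop56 was higher in 4 and lower in none, and Fbl and Polr1b were higher in 3 and lower in 1. Of 14 regulators, 10 were higher in T cells and none lower, beside the same 42.5% of genes. Tsc1, an inhibitor of mTOR signalling, was higher in 8 of 8 classes, from 24.5 to 34.3 CPM in T cells and from 31.5 to 47.7 CPM in B cells, and Mxd4, an antagonist of Myc, in 7. Myc itself, which drives ribosome production, was higher in 6 classes, as were the S6 kinase Rps6kb1 and Eif4ebp2, a repressor of cap-dependent translation. Their median log2 ratios over the 8 classes were 0.46 for Myc, 0.46 for Rps6kb1 and 0.42 for Eif4ebp2, beside 0.62 for Tsc1 and 0.49 for Mxd4. These genes were named because they moved in most classes. Of the rest, Mxi1 was higher in 5 classes, and Larp1 and Rptor in 4. Eif4e, Eif4ebp1, Mtor, Pdcd4, Rheb and Tsc2 were each higher in 1 or 2 classes and lower in 1 or 2. For these counts of classes no share of all genes was worked out. In single classes, 18.3% (plasma cells) to 42.5% (T cells) of genes were higher. The counting interval of the Tsc1 ratio included 1 in plasma cells, neutrophils, monocytes and mesothelial cells. Mitochondrial ribosomal proteins, which build a separate ribosome, had 1 of 77 measured lower and 8 higher in T cells, beside 1.72% and 42.5% of genes. In plasma cells 65 of 76 were lower, beside 45.9% of genes, and 43 without immunoglobulin rows, beside 25.7%. In mesothelial cells 40 of 75 were lower, where 19.1% of genes were.

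By UMIs, Rps24 was the most abundant member (591208 over both libraries), followed by Rps29 (451357), Rpl37a (439685), Rps27 (423856) and Rplp1 of the stalk (415435). The fewest were on Rps27l, Rpl13a (23179), Rpl15 (30214), Rpl24 (41881) and Rps6 (54686), the target of the S6 kinases. These totals are not levels of the proteins or of the mRNAs per length. Over all cells, Rps29 fell from 6181 to 4556 CPM (ratio 0.737) and Rpl37a was nearly the same, at 5279 and 5331 CPM.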

How the data were processed

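Counts per gene and cell barcode were deposited by the authors as 1 matrix for each of 2 libraries, per the file headers the output of Cell Ranger 7.1.0, and per the submitters' processing notes on build mm9. Cells were kept if mitochondrial transcripts were under 20% of UMIs and if they had 500 or more UMIs on 300 or more genes, and 278 and 331 doublets called by Scrublet (scanpy 1.11.5, seed 1) were removed. A cell was given the class with the most distinct markers detected, if at least 3 and at least 2 more than any other class. Counts were summed by class and library and given as CPM or as shares, with exact Poisson, Clopper-Pearson and conditional binomial intervals at 95%. With 1 library per group no test was run. A gene counted as lower at a CPM ratio of at most 0.8, and as higher at its inverse or above, among genes with at least 1000 UMIs in all and 20 in the class. Members named between classes were the 10 with the widest composition range, and between libraries the 6 highest and 6 lowest median ratios, with the 5 most and 5 least abundant members and up to 4 genes of each list. The members and lists were chosen with earlier results of these data known. The code for intervals and gates was run on simulated data. Those counts were Poisson draws and those cells held markers of a single class, so the run says nothing about accuracy in real cells. Promoters were matched by symbol. The naive T and resting B lists were used without 1 gene, a choice made after seeing the data, and that gene is not reported here.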

Additional observations from a re-analysis of the deposited data

Results flagged for a closer look

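Hepatocyte and endothelial cells went against the other classes, with a member share that was higher in CCl4+IPA by log2 ratios of 0.49 and 0.41, where the counting interval lay below 1 in 13 of the 15 classes. Only 5 and 12 hepatocyte and 5 and 6 endothelial cells stood behind these values, and the difference from the other classes was not tested.

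For 6 named members the CPM went in opposite directions in different classes, with counting intervals that left out equality on both sides. The log2 ratio of Rps10 was 0.31 in NK or ILC1 cells and -0.22 in plasma cells, that of Rpl23a 0.40 in neutrophils and -0.40 in plasma cells, and that of Rps15 0.19 in B cells and -0.29 in plasma cells. For Rpl27 it was 0.27 in neutrophils and -0.32 in plasma cells, for Rpl18 0.22 in neutrophils and -0.45 in plasma cells, and for Rpl24 0.13 in T cells and -0.24 in plasma cells. Plasma cells were the lower class each time, and their immunoglobulin share also differed between the libraries. Without immunoglobulin rows in the total, the log2 ratio of the plasma cell member share was -0.21 in place of -0.57. Such a change of total moves the ratio of every gene in the class alike. The plasma cell values of these 6 genes are given with immunoglobulin rows in the total. The upward move without those rows is larger than the drop of Rps10, Rps15, Rpl27 and Rpl24, so their direction depends on that choice. It is smaller than the drop of Rpl23a and Rpl18, which would stay lower. None of these differences was tested.

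Outside the genes and classes compared, 322 rows named as ribosomal protein pseudogenes held 60502 UMIs, equal to 0.399% of the member UMIs. Cells that fitted no class (1540 and 1115) held 18.5% of UMIs on the members in CCl4 and 14.7% in CCl4+IPA.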

How the results depend on the processing

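No paired analysis was possible because each group was 1 library. A value was held to have moved when it left its own counting interval, which is narrow at this depth, or when a count changed by over 1.5 times. By this measure 242 of the values for shares, subsets and counts stayed, 145 moved and 8 changed sign. All 44 values for the composition of named members stayed, but each of those members was run under only 2 alternatives. The first was the gate of at least 4 markers. The other was a higher UMI limit that every member passed, so it could change nothing. The lower share over all cells, in T, B and plasma cells, monocytes, plasmacytoid dendritic cells and mesothelial cells and the higher share in naive T cells kept their direction under every alternative run. The share was lower in 7 of 8 classes with a margin of 3 markers and in 6 in the median cell. The alternatives without immunoglobulin or without ribosomal RNA-like rows alone, the looser B cell split and the cycling split within T and B cells were chosen after seeing the data. The cause of the other changes below was not tested, and leaving out rows changes the total by construction. Shares over all genes under the same setting were worked out only for the counts that have one beside them above. The other member counts below have none, so they cannot set the members against other genes. A summed count takes a gene once for each class in which it passed. Cell number was lowest in plasma and mesothelial cells, with 59 and 56 cells in the smaller library, and member UMIs in neutrophils, with 76412 and 68232.

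With at least 200 genes per cell as the only filter, the log2 ratio between libraries was -0.14 over all cells, -0.11 in T cells, -0.10 in B cells and -0.064 in neutrophils. Subset log2 ratios were 0.70 (naive T, CCl4) and 0.036 (cycling, CCl4). Members higher were 2 in neutrophils and 2 in all classes summed. With under 10% mitochondrial UMIs, the log2 ratio between libraries was -0.15 over all cells, -0.12 in T cells and -0.093 in NK or ILC1 cells. Within a library it was 0.71 (naive T, CCl4), 0.017 (cycling, CCl4) and 0.059 (cycling, CCl4+IPA). With doublet calls kept, the log2 ratio between libraries was -0.10 in B cells and -0.064 in neutrophils. Members higher were 2 in neutrophils and 2 in all classes summed. With at least 4 markers, the log2 ratio between libraries was -0.075 in NK or ILC1 cells. The subset log2 ratio was 0.84 (naive T, CCl4+IPA). Members higher were 1 in NK or ILC1 cells and 2 in all classes summed. With a margin of 3 markers, the log2 ratio between libraries was -0.60 in plasma cells, -0.062 in NK or ILC1 cells, 0.061 in neutrophils, -0.075 in monocytes, -0.23 in plasmacytoid dendritic cells and -0.13 in mesothelial cells. Subset log2 ratios were 0.69 (naive T, CCl4). Members lower were 5 in neutrophils and 8 in mesothelial cells. Members higher were 1 in NK or ILC1 cells, 4 in neutrophils and 5 in all classes summed. Without mitochondrial and ribosomal RNA-like rows, the log2 ratio between libraries was -0.26 over all cells, -0.26 in T cells, -0.24 in B cells, -0.64 in plasma cells, -0.21 in NK or ILC1 cells, -0.14 in neutrophils, -0.23 in monocytes, -0.35 in plasmacytoid dendritic cells and -0.33 in mesothelial cells. Within a library it was 0.74 (naive T, CCl4), 0.84 (naive T, CCl4+IPA), -0.037 (cycling, CCl4) and 0.055 (cycling, CCl4+IPA). Members lower were 23 in T cells, 21 in B cells, 17 in NK or ILC1 cells, 22 in neutrophils, 18 in monocytes, 41 in plasmacytoid dendritic cells, 38 in mesothelial cells and 254 in all classes summed. Members higher were 0 in neutrophils and 0 in all classes summed. Without the 50 most abundant other genes, the log2 ratio between libraries was -0.27 over all cells, -0.26 in T cells, -0.24 in B cells, -0.35 in plasma cells, -0.22 in NK or ILC1 cells, -0.16 in neutrophils, -0.24 in monocytes, -0.35 in plasmacytoid dendritic cells and -0.31 in mesothelial cells. For subsets it was 0.69 (naive T, CCl4), 0.79 (naive T, CCl4+IPA), -0.088 (cycling, CCl4) and -0.0011 (cycling, CCl4+IPA). In the median cell, the log2 ratio between libraries was -0.22 over all cells, -0.14 in T cells, -0.81 in plasma cells, 0.0089 in NK or ILC1 cells, 0.068 in neutrophils, -0.10 in monocytes and -0.24 in plasmacytoid dendritic cells. Naive T and cycling log2 ratios were 0.75 (naive T, CCl4), 0.91 (naive T, CCl4+IPA), -0.091 (cycling, CCl4) and 0.012 (cycling, CCl4+IPA). With cells thinned to 1000 UMIs, the log2 ratio between libraries was -0.14 over all cells, -0.079 in T cells, -0.088 in B cells, -0.50 in plasma cells, -0.029 in NK or ILC1 cells, -0.016 in neutrophils, -0.0095 in monocytes, -0.27 in plasmacytoid dendritic cells and -0.22 in mesothelial cells. Subset log2 ratios were 0.81 (naive T, CCl4+IPA), 0.067 (cycling, CCl4) and 0.041 (cycling, CCl4+IPA). With a 1.1-fold limit, members lower were 26 in T cells, 23 in B cells, 26 in NK or ILC1 cells, 31 in neutrophils, 32 in monocytes, 57 in plasmacytoid dendritic cells, 58 in mesothelial cells and 329 in all classes summed. Members higher were 5 in T cells, 5 in B cells, 6 in NK or ILC1 cells, 9 in neutrophils, 3 in monocytes and 28 in all classes summed. With a 1.5-fold limit, members lower were 0 in T cells, 0 in B cells, 39 in plasma cells, 0 in NK or ILC1 cells, 3 in neutrophils, 0 in monocytes, 1 in plasmacytoid dendritic cells, 1 in mesothelial cells and 44 in all classes summed. Members higher were 0 in neutrophils and 0 in all classes summed. Relative to the all-gene median, members lower were 50 in T cells, 42 in B cells, 42 in plasma cells, 29 in NK or ILC1 cells, 23 in neutrophils, 32 in monocytes, 57 in plasmacytoid dendritic cells and 311 in all classes summed. Members higher were 0 in neutrophils and 0 in all classes summed. Without immunoglobulin rows, the log2 ratio between libraries was -0.21 in plasma cells. Subset log2 ratios were 0.072 (cycling, CCl4) and 0.071 (cycling, CCl4+IPA). Members lower were 25 in plasma cells. Without ribosomal RNA-like rows alone, the log2 ratio between libraries was -0.24 over all cells, -0.22 in T cells, -0.20 in B cells, -0.63 in plasma cells, -0.19 in NK or ILC1 cells, -0.12 in neutrophils, -0.20 in monocytes, -0.33 in plasmacytoid dendritic cells and -0.32 in mesothelial cells. Within a library it was 0.73 (naive T, CCl4) and -0.017 (cycling, CCl4). Members lower were 20 in T cells, 13 in B cells, 13 in NK or ILC1 cells, 20 in neutrophils, 15 in monocytes, 39 in plasmacytoid dendritic cells, 37 in mesothelial cells and 231 in all classes summed. Members higher were 0 in neutrophils and 0 in all classes summed.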
